A study of Mus musculus with 2 samples.

Results

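The 10 genes that encode the subunits and inhibitors of the transcription factor NF-kB were compared between 2 forms of a mouse mammary tumour cell line. They were the 10 rows named Rela, Rel, Relb, Nfkb1, Nfkb2, Nfkbia, Nfkbib, Nfkbie, Bcl3 and Tnfaip3 among the 23562 genes of the table, picked by name for their roles. That choice was made with earlier results of these data known. The first form, called null cells below, was the line AS0574 with the genotype Rnf8-/-;Trp53Δ/Δ, and the second, called complemented cells, was that genotype with Rnf8 restored. By the labels both forms therefore carried deleted Trp53, which encodes p53, and neither had an intact Rnf8 locus. Rnf8 encodes a ubiquitin ligase of the DNA damage response. Each form was 1 library of total RNA from cultured cells of 1 line, so there was no replicate, no test between the forms was made, and no difference below has a replicate check. All values are from bulk RNA, in which fewer cells of a type and less RNA per cell cannot be told apart.

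NF-kB is a family of dimers that form between 5 proteins sharing a Rel homology domain. In resting cells the classical dimers, such as that of the Rela and Nfkb1 products, are held in the cytoplasm by IkB proteins. Signals from cytokine and pattern recognition receptors activate the IKK kinases, which mark the IkB proteins for destruction and let the dimers enter the nucleus. A second, non-canonical route runs through the Nfkb2 and Relb products. Several of these genes, among them Nfkbia, Nfkb2, Rel, Relb and Tnfaip3, are known targets of NF-kB itself. In the mammary gland the pathway is known for roles in alveolar growth and in tumour inflammation.

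There were 57263401 counted reads for null cells and 48607808 for complemented cells. Rnf8 itself stood at 10.5 RPKM in null and 596 RPKM in complemented cells, where RPKM is the read count divided by gene length and by the total of counted reads. Trp53 was read at 6.15 RPKM in null (1075 reads) and 4.69 RPKM in complemented cells (696 reads). The counts are not placed within a gene, so the reads of Rnf8 in null cells and of Trp53 in both do not check the deletions. The 10 genes had between 242 and 12545 reads in a library, so counting error was small for most of them. The libraries differed widely in the markers of cell lineage. The 12 epithelial markers summed to 6406 RPKM in null cells and to 1.41 RPKM in complemented cells, in which these defining markers of mammary epithelium were at or near 0 (Krt5 had 0 reads). The 11 mesenchymal markers summed to 382 RPKM in null and 1739 RPKM in complemented cells. Nearly all of the null sum was Vim, at 376 RPKM in null and 725 RPKM in complemented cells. Of the 8 markers with a mean of at least 1 RPKM, 7 were lower in null cells by the 2-fold rule below, all but Vim. The share of all genes tested was 15.9%. Sparc, for example, stood at 3.56 RPKM in null and 632 RPKM in complemented cells. Of 21 leukocyte markers 17 lay below a mean of 1 RPKM over both libraries, and the list summed to 359.5 RPKM in null and 46.0 RPKM in complemented cells, mostly through Cd14 and S100a8. The pan-leukocyte gene Ptprc had 0 reads in null and 1 in complemented cells, and Cd8a had 0 in both. The 8 endothelial markers summed to 0.635 RPKM in null and 0.915 RPKM in complemented cells, with Kdr and Tie1 at 0 reads in null cells. The part of the epithelial, mesenchymal and leukocyte differences in any NF-kB difference was not tested.

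By a 2-fold rule Nfkbie was higher in null cells, Rel was lower, and the other 8 of the 10 genes passed in neither direction. These calls used the difference of log2(RPKM + 1), null minus complemented, at 1 or more or at -1 or less. Among the 12609 genes with a mean of at least 1 RPKM, a filter that all 10 genes passed, 14.8% were higher by that rule, 15.9% were lower and 30.7% were one or the other. The 10 genes' counts, 1 higher and 1 lower, were near that background. Their median log2 difference was -0.35, beside -0.17 for all genes tested. Of the 10, 4 had the higher RPKM in null cells, as did 5200 of the 12609 genes tested. TMM scaling, which trims extreme genes before setting the library sizes, moved the median of all genes up by 0.20. With it 17.3% of 12600 genes were higher and 12.3% were lower.

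**Figure D1:**
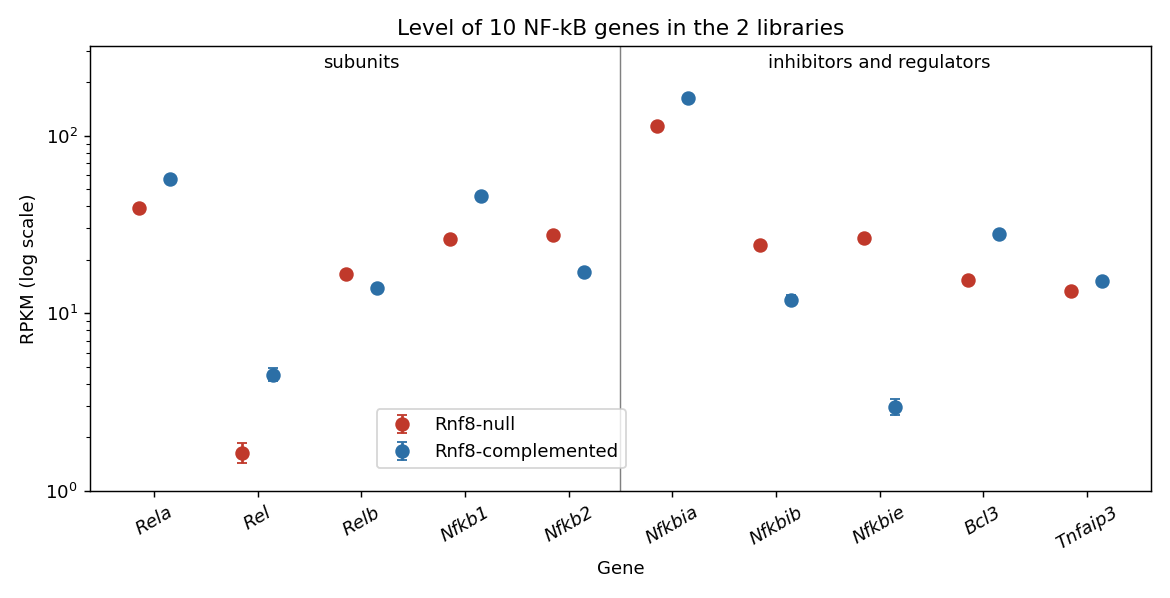
RPKM (log axis) of the 5 subunit genes and the 5 inhibitor and regulator genes, with 1 point per library and bars for the exact 95% Poisson interval on the reads. Nfkbie stands at 26.6 RPKM in null and 2.97 in complemented cells, and Rel is the lowest gene of null cells at 1.64 RPKM.

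Rela (chromosome 19, 5637483 to 5648130 of GRCm38) encodes the transactivating subunit of the classical dimer and was the most abundant subunit transcript in both libraries. It stood at 39.3 RPKM (interval 38.3 to 40.3, 6100 reads) in null cells and 57.2 RPKM (56.0 to 58.6, 7538 reads) in complemented cells, a log2 difference of -0.53. Nfkb1 (chromosome 3, 135584655 to 135691547) encodes the precursor of its usual partner. It stood at 26.1 RPKM (25.5 to 26.7) in null and 45.7 RPKM (44.8 to 46.5) in complemented cells, a log2 difference of -0.78. The annotated model Gm43430 overlaps 3897 bases of Nfkb1 on the same strand, and its reads were not analysed here. Both genes of the classical dimer were thus less abundant in null cells, within 2-fold. Of all genes tested, 31.8% had a lower log2 difference than Rela and 21.9% a lower one than Nfkb1. With TMM scaling the ratios were 0.803 for Rela and 0.668 for Nfkb1.

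Rel (chromosome 11, 23736847 to 23770970) encodes c-Rel, a transactivating subunit best known from lymphocytes, and was the scarcest subunit transcript in both libraries. It had 242 reads in null cells (1.64 RPKM, 1.44 to 1.86) and 565 in complemented cells (4.498 RPKM, 4.13 to 4.88). The RPKM was 2.75-fold lower in null cells (exact conditional binomial 95% interval 2.36 to 3.21). Its log2 difference of -1.06 passed the 2-fold rule narrowly, and 14.5% of all genes tested had a lower one. With TMM scaling the RPKM was 2.35-fold lower (2.02 to 2.75), but the call by log2(RPKM + 1) was lost. Of the leukocyte markers, the lymphocyte genes Cd3e, Cd3d, Cd4, Cd8a, Ms4a1, Cd79a and Ncr1 had at most 6 reads each in null and 14 in complemented cells.

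The non-canonical subunits went the other way from the classical pair. Nfkb2 (chromosome 19, 46304320 to 46312385) encodes the precursor that is processed in the non-canonical route. It stood at 27.6 RPKM (26.98 to 28.2, 7768 reads) in null and 17.1 RPKM (16.6 to 17.7, 4092 reads) in complemented cells, a ratio of 1.61 (1.55 to 1.67) and a log2 difference of 0.66. Relb (chromosome 7, 19606217 to 19629438), which encodes its usual partner, stood at 16.6 RPKM (16.02 to 17.1) in null and 13.9 RPKM (13.3 to 14.4) in complemented cells, a ratio of 1.20 (1.14 to 1.26). Neither difference reached 2-fold. Of all genes tested, 80.5% had a lower log2 difference than Nfkb2 and 69.3% a lower one than Relb. The last 299 bases of Nfkb2 overlap Psd on the opposite strand, which had 1047 reads in null and 1049 in complemented cells, so reads there may belong to either gene. The noncoding gene AC114539.1 overlaps 1292 bases of Nfkb2 on the opposite strand, and its reads were not analysed here.

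The balance between subunit transcripts differed between the libraries. The 5 subunits summed to 111 RPKM in null cells and 138 RPKM in complemented cells. Relb and Nfkb2 together made up 39.7% of that sum in null and 22.4% in complemented cells, while Rela, Rel and Nfkb1 made up 60.3% in null and 77.6% in complemented cells. A ratio of 2 genes within a library does not depend on how the libraries are scaled. Nfkb2 over Nfkb1 was 1.06 in null and 0.375 in complemented cells, a 2.82-fold difference of the ratio (exact conditional interval 2.69 to 2.96). Relb over Rela was 0.421 in null and 0.242 in complemented cells, a 1.74-fold difference (1.64 to 1.85). Nfkb1 over Rela was closer, at 0.664 in null and 0.798 in complemented cells.

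**Figure D2:**
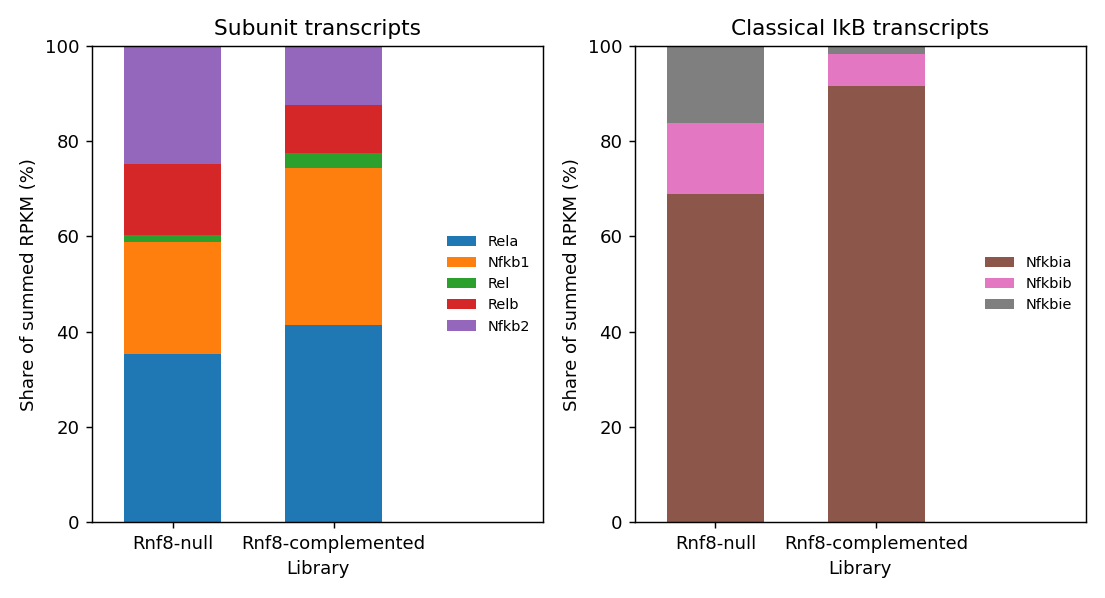
Share of summed RPKM (percent) taken by each of the 5 subunit genes and each of the 3 classical IkB genes, in stacked bars with 1 bar per library. Nfkb2 takes 24.8% of the subunit sum in null and 12.4% in complemented cells, and Nfkbie takes 16.3% of the IkB sum in null and 1.67% in complemented cells.

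Nfkbia (chromosome 12, 55489410 to 55492647) encodes IkB-alpha, the main feedback inhibitor of Rela dimers, and was the most abundant of the 10 transcripts in both libraries. It stood at 113 RPKM (111 to 115, 10190 reads) in null and 163 RPKM (161 to 166, 12545 reads) in complemented cells, a log2 difference of -0.53. Rela had the same difference to 2 decimals. The ratio of Nfkbia to Rela was 2.87 in null cells and 2.86 in complemented cells, a 1.004-fold difference (0.962 to 1.05).

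Nfkbie (chromosome 17, 45555703 to 45563169) encodes IkB-epsilon, an inhibitor that holds Rela and c-Rel dimers and is itself induced by NF-kB. It differed most among the 10 genes, with 3689 reads in null cells (26.6 RPKM, 25.8 to 27.5) and 350 reads in complemented cells (2.97 RPKM, 2.67 to 3.30). The ratio was 8.95 (8.02 to 10.01) and the log2 difference 2.80, and 602 of the 12609 genes tested had a higher one. The gene stood above 75.8% of the genes tested in null cells and above 20.2% in complemented cells. No other annotated gene overlaps it. Nfkbie over Nfkbia was 0.236 in null and 0.0182 in complemented cells, a 13.0-fold difference (11.6 to 14.6).

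Nfkbib (chromosome 7, 28758251 to 28767512) encodes IkB-beta, which is degraded more slowly than IkB-alpha. It had 2931 reads in null cells (24.3 RPKM, 23.4 to 25.2) and 1221 in complemented cells (11.9 RPKM, 11.3 to 12.6). The ratio of 2.04 (1.91 to 2.18) corresponded to a log2 difference of 0.97 with the pseudocount, just short of the rule, and TMM scaling gave a ratio of 2.38 (2.23 to 2.55) that passed it. Nfkbib overlaps Sirt2 by 778 bases and Ccer2, not analysed here, by 718 bases, both on the opposite strand. Sirt2 stood at 52.9 RPKM in null and 47.6 RPKM in complemented cells, and the part of shared reads in the Nfkbib values was not tested. Together the 3 classical IkB transcripts summed to 164 RPKM in null and 178 RPKM in complemented cells. Nfkbia made up 68.9% of that sum in null cells, against 91.6% in complemented cells.

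**Figure D3:**
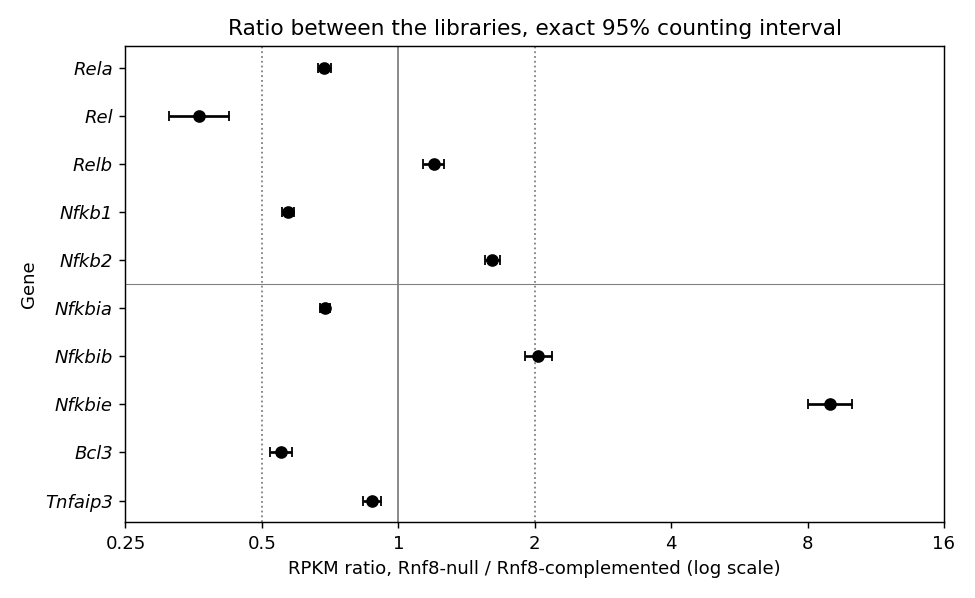
Ratio of RPKM, null over complemented (log axis), for each of the 10 genes with the exact 95% conditional binomial interval, and dotted lines at 2-fold. Nfkbie at 8.95 and Rel at 0.364 lie outside the lines with their intervals, and the interval of Nfkbib (1.91 to 2.18) spans one of them.

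Bcl3 (chromosome 7, 19808462 to 19822770) encodes a nuclear IkB-like protein that binds the DNA-binding subunits derived from Nfkb1 and Nfkb2 and can activate transcription with them. It stood at 15.4 RPKM (14.7 to 16.05, 2027 reads) in null and 27.9 RPKM (26.9 to 28.8, 3119 reads) in complemented cells, a log2 difference of -0.82. Its ratio to Nfkb1 was 0.589 in null and 0.610 in complemented cells, which differed by less than counting error (0.966-fold, 0.906 to 1.03). Relb lies 179 kb from Bcl3 on the same chromosome and had a ratio above 1, where that of Bcl3 was 0.552. The antisense transcripts Gm16174 and Gm16175 lie across Bcl3, and their reads cannot be told from those of Bcl3 where counting ignored strand, which was not given in the sources used here.

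Tnfaip3 (chromosome 10, 19000910 to 19015657) encodes a ubiquitin-editing enzyme that ends signalling from TNF and Toll-like receptors. It stood at 13.3 RPKM (12.8 to 13.7, 3725 reads) in null and 15.1 RPKM (14.6 to 15.6, 3608 reads) in complemented cells. Its log2 difference of -0.18 lay next to the median of all genes, and with TMM scaling the ratio was 1.02 (0.979 to 1.07), which turned its direction. It differed least of the 10 genes.

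The order of the 10 transcripts by RPKM shared its top and changed below it. Nfkbia and Rela came first and second in both libraries. In null cells Nfkb2 at 27.6, Nfkbie at 26.6 and Nfkb1 at 26.1 RPKM followed, with neighbours whose intervals overlapped, and Relb and Bcl3 overlapped too. Rel came last. In complemented cells Nfkb1 and Bcl3 followed Rela, Nfkbie came last below Rel, and no neighbours in the order overlapped. Nfkbie thus took rank 4 in null and rank 10 in complemented cells.

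The promoters of these genes were searched for the kappaB consensus, the decamer bound by NF-kB, because several of them are known NF-kB targets. RefSeq windows of 250 bases before to 50 bases after a start site on GRCm38.p6 were found for 8 of the 10 genes, all but Nfkb1 and Relb. At least 1 match on either strand lay in the windows of 6 genes, namely Nfkb2, Rel, Nfkbia, Nfkbie, Bcl3 and Tnfaip3, and none lay in those of Rela and Nfkbib. The share was 9.55% over 27025 genes with a window, and 12.6% over the 9027 of them that passed the filter on low values. Matches on the 2 strands can overlap, and a gene with several start sites has several windows. A match is a description of the letters and shows no binding. The stretches of 4 genes are shown, Nfkbie and Rel as the genes past the 2-fold rule and Nfkbia and Nfkb2 as known feedback targets on either side of 1. Each is written 5′ to 3′ on the gene's strand with the matched letters in capitals.
Nfkbie (chr17:45555569-45555628, + strand): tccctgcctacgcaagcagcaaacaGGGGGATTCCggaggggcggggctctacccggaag
Rel (chr11:23771027-23771086, - strand): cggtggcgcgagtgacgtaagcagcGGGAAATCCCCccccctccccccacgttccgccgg
Nfkbia (chr12:55492648-55492701, - strand): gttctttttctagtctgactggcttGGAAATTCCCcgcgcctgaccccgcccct
Nfkb2 (chr19:46304673-46304736, + strand): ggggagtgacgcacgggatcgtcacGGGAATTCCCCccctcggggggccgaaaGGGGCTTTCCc
The capitals of Rel and the first capitals of Nfkb2 hold 2 matches that overlap. The match begins 106 bases before the start site in Nfkbie and 29 bases before it in Nfkbia. Start sites here are those of RefSeq, which can lie inside the GENCODE gene spans given above. The Nfkb2 stretch shown lies within its span, which begins at 46304320. The only Nfkbib window (28766595 to 28766894) lies within its span too, so sequence before the outer end of that span was not searched. Matches thus stood before RefSeq start sites of genes that were higher (Nfkbie), lower (Rel) and past the rule in neither direction (Nfkbia, Nfkb2).

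The other genes of the pathway were counted by the same rule. Lists of 6 kinds with 96 distinct genes past the filter held 29 genes (30.2%) higher in null cells and 20 genes (20.8%) lower, beside the 14.8% and 15.9% of all genes tested. The lists were chosen with earlier results of these data known, so their shares are a description only. Of 6 further IkB-like and NF-kB-binding genes 2 were higher and 1 was lower (median log2 difference 0.21). The lower one was Nfkbiz, which encodes the nuclear cofactor IkB-zeta, at 19.2 RPKM in null and 62.9 RPKM in complemented cells. The higher ones were Nfkbil1, at 46.1 RPKM in null and 14.5 RPKM in complemented cells, and Nkiras2, whose product binds IkB proteins, at 26.8 RPKM in null and 11.5 RPKM in complemented cells. Nkrf, a repressor of NF-kB targets, stood at 2.90 RPKM in null and 6.02 RPKM in complemented cells, short of the 2-fold rule. The atypical IkB gene Nfkbid had 3 reads in null and 0 in complemented cells.

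Of 13 genes for IKK and upstream kinases 1 was higher, 2 were lower and 10 lay within 2-fold, beside 69.3% of all genes tested within it. The list median was -0.17, beside -0.17 for all genes. With TMM scaling it was 0.036, beside 0.029 for all genes. Of the central IKK complex, the regulatory subunit gene Ikbkg stood at 16.6 RPKM in both libraries. The catalytic subunit gene Chuk stood at 11.2 RPKM in null and 12.7 RPKM in complemented cells, and the other catalytic subunit gene, Ikbkb, at 3.02 RPKM in null and 2.15 RPKM in complemented cells, a ratio of 1.41 (1.33 to 1.49). Ikbke, an IKK-related kinase, was higher, at 34.1 RPKM in null and 11.7 RPKM in complemented cells. Ripk2, which relays signals of the NOD receptors, was 12.6-fold lower at 6.87 RPKM in null and 86.9 RPKM in complemented cells (interval 11.8 to 13.6). Map3k8, whose product is bound by the Nfkb1 precursor, was lower at 2.23 RPKM in null and 5.93 RPKM in complemented cells. Map3k14, the kinase of the non-canonical route, had 1.27 RPKM in null and 3.02 RPKM in complemented cells. Its RPKM was 2.38-fold lower in null cells (2.13 to 2.66), but its log2(RPKM + 1) difference of -0.83 did not pass the rule.

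Of 24 adaptors and ubiquitin ligases 4 (16.7%) were higher and 2 (8.33%) were lower, beside 14.8% and 15.9% of all genes tested. The list median was 0.09. Card10, a scaffold that activates IKK in non-immune cells, stood at 55.9 RPKM in null and 2.399 RPKM in complemented cells, a ratio of 23.3 (21.4 to 25.3). Traf1, itself a known NF-kB target, had 3212 reads in null and 127 in complemented cells, a ratio of 21.5 (17.98 to 25.8). Irak2, which relays interleukin-1 signals, was higher as well, at 7.61 RPKM in null and 2.15 RPKM in complemented cells. Birc2, a ubiquitin ligase that limits Map3k14, was lower, at 7.08 RPKM in null and 27.1 RPKM in complemented cells.

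Of 12 other negative regulators of the pathway 5 (41.7%) were higher and 1 (8.33%) was lower in null cells, with a median of 0.68. The shares of all genes tested were 14.8% and 15.9%. The list median was -0.11 over the members with a mean of at least 5 RPKM. Sigirr, which restrains interleukin-1 and Toll-like receptors, stood at 8.11 RPKM in null and 0.360 RPKM in complemented cells. Pdlim2, known to direct nuclear Rela to degradation, stood at 12.8 RPKM in null and 1.19 RPKM in complemented cells. Tnip1 and Tnip3, whose products bind that of Tnfaip3, stood at 32.1 and 3.42 RPKM in null cells and at 12.1 and 0.378 RPKM in complemented cells. Tnip2, on the same list, went the other way, at 9.31 RPKM in null and 17.1 RPKM in complemented cells, short of the 2-fold rule. The 1 lower gene was the deubiquitinase gene Cyld, whose log2 difference of -1.001 was at the edge of the rule.

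Receptor and target genes went in both directions. Of 12 receptor genes 4 (33.3%) were higher and 4 (33.3%) were lower, beside 14.8% and 15.9% of all genes tested. The receptor median was 0.17 (-0.30 with a mean of at least 5 RPKM). The interleukin-1 receptor gene Il1r1 had 7 reads in null and 5531 in complemented cells, and the interleukin-18 receptor gene Il18r1 had 2769 in null and 0 in complemented cells. The viral RNA receptor gene Tlr3 stood at 15.99 RPKM in null and 2.19 RPKM in complemented cells, and the TNF receptor gene Tnfrsf1b at 7.46 RPKM in null and 39.99 RPKM in complemented cells. Of 34 known NF-kB target genes 15 (44.1%) were higher, 11 (32.4%) were lower and 8 lay within 2-fold, with a median of 0.06 (-0.14 with a mean of at least 5 RPKM). The acute-phase gene Saa3 stood at 8.14 RPKM in null and 15053 RPKM in complemented cells, and the chemokine genes Ccl2 and Ccl7 had 4 and 8 reads in null cells, against 29356 and 20035 in complemented cells. Csf3, a granulocyte growth factor gene, stood at 182.6 RPKM in null and 0.483 RPKM in complemented cells.

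**Figure D4:**
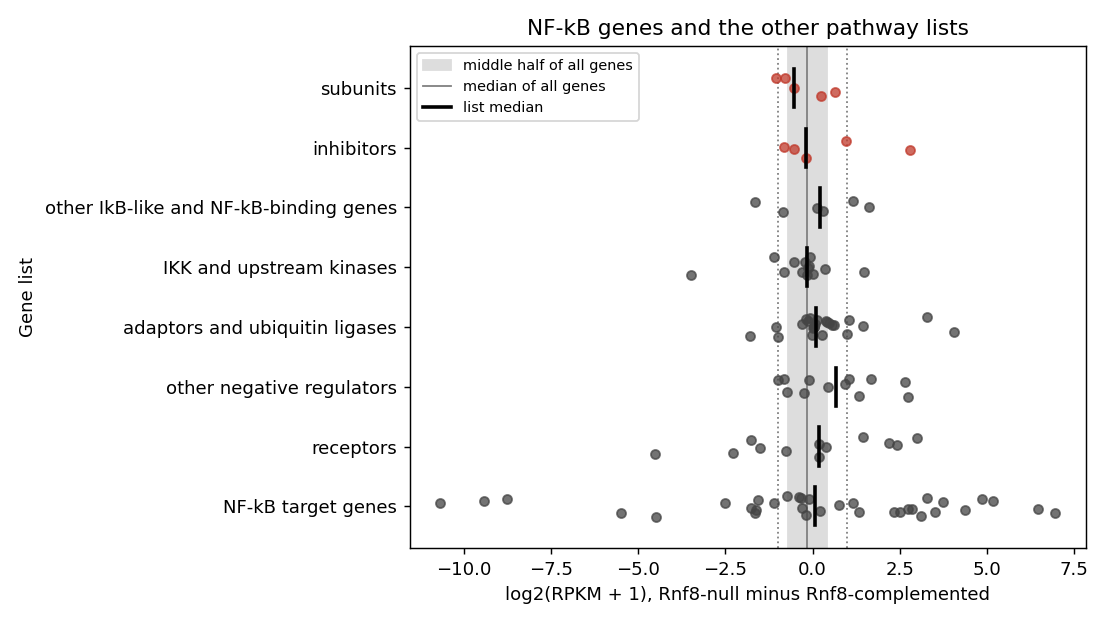
Difference of log2(RPKM + 1), null minus complemented, for each gene past the filter in the subunit and inhibitor lists (red) and the other pathway lists (dark grey), with list medians (black bars), the middle 2 quartiles of all genes (grey band) and dotted lines at 2-fold. The 10 genes lie between -1.06 and 2.80, and the target genes between -10.69 and 6.95.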

How the data were processed

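RNA from 1 culture of each form was sequenced. Per the labels' protocols, RNA was isolated with a column kit and libraries followed Illumina TruSeq procedures. Aligner and helper programs in the submitters' processing notes are STAR 2.4.0f1 and SAMtools 0.1.18, beside bedtools and DESeq2, with GRCm38 (mm10) as the build. In the deposited table each gene has a raw read count and an RPKM value for each form. Count over RPKM gave the same whole-number gene length in both (to within 1.35e-08 bases). Columns were assigned by sample title. Annotation and strand setting were not given in the sources used here.

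From the deposited RPKM, log2(RPKM + 1) was subtracted, null minus complemented, for genes with a mean of at least 1 RPKM. Intervals are exact 95% Poisson limits for levels, Clopper-Pearson limits for ratios and conditional limits for ratios of ratios (scipy 1.17.1). They cover counting error only, and they treat each read as independent, since PCR copies of 1 molecule cannot be recognised. TMM (edgeR 4.0.16) and median-of-ratios factors (DESeq2 1.42.0) served only as scaling alternatives, beside other pseudocounts, filters and fold rules. The calculation was tested on simulated data with counting error only. The genes changed there had higher means over both libraries than Rel, Relb, Nfkbib, Nfkbie and Tnfaip3, so that test does not bear on the calls of these genes. The 10 genes and all lists were chosen with earlier results of these data known. Named beyond the 10 genes, Rnf8 and Trp53 were up to 4 genes per pathway list, those with the largest absolute difference at a mean of at least 1 RPKM. Chuk, Ikbkb, Ikbkg, Cyld, Tnip2, Nfkbid and the genes named from marker lists fall outside that rule and were picked with values in view. Otulin was not analysed here, Adgre1 was matched by its older symbol Emr1, and positions come from GENCODE vM21. Of the 40 listed targets 5 are also in other lists.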

Additional observations from a re-analysis of the deposited data

How the results depend on the processing

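With 1 library per form no spread between cultures was measured, and the widest counting intervals were those of Rel in null cells and of Nfkbie in complemented cells. No paired analysis was possible because each form had 1 library. Nfkbie was higher under all 9 alternatives. Under the 6 alternatives that gave a value for each gene, 9 genes kept their sign, and Tnfaip3 was above 0 with TMM and median-of-ratios scaling (0.04 at most). The number of the 10 genes called higher was 2, with Nfkbib added, for a pseudocount of 0.1 RPKM, TMM, median-of-ratios and the plain ratio, and 3 with a 1.5-fold rule. The number called lower was 0 for a pseudocount of 5 RPKM, a mean of at least 5 RPKM, TMM and median-of-ratios, and 3 with a 1.5-fold rule. The shares of all genes called higher and lower moved too. They were 16.3% and 19.4% with a pseudocount of 0.1 RPKM, and 9.66% and 8.05% with 5 RPKM. A mean of at least 5 RPKM gave 13.9% and 14.1%, and the plain ratio 16.4% and 19.9%. TMM gave 17.3% and 12.3%, median-of-ratios 17.5% and 12.2%, and the 1.5-fold rule 21.0% and 29.4%. The median of the 10 genes was -0.18 with a mean of at least 5 RPKM, -0.14 with TMM and -0.13 with median-of-ratios. Those scalings moved the median of all genes by 0.20 and 0.21 and the share of higher genes among all called to 58.4% and 58.9%, against 48.1%. Each alternative changes the scale, the threshold or the genes counted, and nothing further about the cause was tested.

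For the other lists, TMM gave medians of 0.42 for IkB-like genes, 0.036 for kinases, 0.30 for adaptors, 0.88 for negative regulators, 0.37 for receptors and 0.28 for targets. Median-of-ratios gave 0.43, 0.047, 0.31, 0.89, 0.38 and 0.29 for these lists in that order. The median of all genes was 0.029 with TMM and 0.039 with median-of-ratios. Both scalings left 1 kinase, 1 adaptor and 0 negative regulators lower. A mean of at least 5 RPKM gave medians of 0.31 for IkB-like genes, -0.11 for negative regulators, -0.30 for receptors and -0.14 for targets, with 1 kinase lower, 3 negative regulators higher and 2 receptors higher. No filter gave 0.12 for IkB-like genes, 0.44 for negative regulators, -0.017 for receptors and 0.11 for targets. A pseudocount of 5 RPKM gave medians of 0.45 for negative regulators and 0.13 for receptors, with 1 IkB-like gene, 2 adaptors and 3 negative regulators higher and 1 kinase, 1 adaptor and 0 negative regulators lower. The receptor median was 0.19 with a pseudocount of 0.1 RPKM, 0.14 without the 10 most read genes and 0.20 with the plain ratio. IkB-like genes called lower were 2 with a pseudocount of 0.1 RPKM, the plain ratio and the 1.5-fold rule, and the last gave 3 lower negative regulators. Kinases called lower were 3 with each of these settings, and so were adaptors.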
